A study of Saccharomyces cerevisiae with 12 samples.

Results

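The genes described here encode the proteins of the cytosolic small (40S) ribosomal subunit of budding yeast, RPS0A to RPS31. They were chosen by systematic name and make up 56 of the 6650 genes in the files. The 56 members fall into 32 protein families, of which 24 are A and B paralogue pairs and 8 have a single copy. They lie on 14 chromosomes, 30 on the Watson strand and 26 on the Crick strand, and 36 of them contain an intron.

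RNA polymerase II (Pol II) was precipitated from crosslinked chromatin with the 4H8 antibody, which binds the polymerase's C-terminal domain, and the DNA bound to it was sequenced. Every strain was W303, MAT alpha, with trp1-delta and the marker alleles his3-11,15, ura3-1 and ade2-1 and a leu2 allele (written leu2-3,12 for Pcf11-DNL and with a different last number for the other 2 genotypes), grown in glucose to an OD600 of 0.5. In every strain, WT included, the chromosomal PCF11 gene was replaced by TRP1, and Pcf11 came from a pRS325-LEU2 plasmid. The Pcf11-13 plasmid carried pcf11-13. The Pcf11-DNL plasmid carried V5-pcf11-deltaN-linkMYC. The series text names an allele Pcf11-dQN, which is taken here to be the same one. The WT plasmid carried V5-PCF11-MYC, and no tag is named for pcf11-13. Each genotype had 2 Pol II libraries and 2 libraries of input DNA that was not precipitated. Pcf11 is an essential subunit of the complex that cleaves pre-mRNA 3′ ends and releases Pol II at the ends of genes.

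Ribosomal protein genes are among the most heavily transcribed genes of growing yeast. The factor Rap1 binds most of their promoters and recruits Fhl1 and Ifh1, and their output follows growth signals. They are also a large share of the yeast genes that have introns, which usually sit close to the start of the gene. Most 40S proteins have a pair of genes left by an ancient genome duplication.

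Values are mean read coverage per base of a gene, divided by a scaling factor per library, so levels of different genes are compared per length. They are averages over a population of cells. Polymerase on fewer cells and less polymerase per cell cannot be told apart. Over all genes, unscaled Pol II coverage averaged 185.9 and 300.7 in Pcf11-13, 158.2 and 206.8 in Pcf11-DNL and 140.1 and 161.8 in WT. Pol II libraries differed in how far coverage spread over genes. The SD of log2 coverage was 0.92 in Pcf11-DNL replicate 2 and 0.93 in WT replicate 1, against 1.08 to 1.19 in the other 4. Those first 2 are called the narrow-spread libraries here. Across genes, which are not independent replicates, log2 Pol II values of the replicates had a Pearson r of 0.994 in Pcf11-13, 0.988 in Pcf11-DNL and 0.972 in WT. PCF11 itself had 758.9 and 847.2 scaled Pol II coverage in Pcf11-13, 157.9 and 158.3 in Pcf11-DNL and 154.3 and 168.4 in WT. It was higher in Pcf11-13 than in WT by log2 2.31 ± 0.10 (SE, n = 2 each, limma, adjusted p = 2.07e-05), with an input difference of log2 0.56. Pcf11-DNL did not pass the test against WT at PCF11 (log2 -0.03 ± 0.10, limma, adjusted p = 1). In the WT libraries the 4 genes specific to alpha cells had 1.23 to 16.7 times the Pol II over input of the median gene, and the 5 genes specific to a cells had 0.20 to 0.38 times.

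The deposited value of some intron genes covers part of the gene. Multiplied by the length it averages, a coverage value should be close to a whole number in all 12 libraries. For 20 of the 20 intron members on the Watson strand this held for a stretch of 1 to 144 bases, far below gene length. The smallest such stretch was 1 base for RPS24A and RPS27A, 3 for RPS17A, 5 for RPS14B, 52 for RPS10A and RPS10B, and 144 for RPS7A. Any multiple of a stretch that fits also fits, so the length averaged may be longer than the figure given. Of the 16 intron members on the Crick strand, 1 (RPS30B, 273 bases) had such a stretch. The check is weak on that strand. Of short genes, 51 of 150 on the Crick strand were whole at their own length, against 139 of 141 on the Watson strand. The search also stopped at 300 bases. A stretch that was not found therefore does not show that the whole gene was covered. RPS28B (204 bases) and RPS29A (171) were whole at full length, RPS28B also at 102 bases, and no stretch was found for the remaining 33 members. The files do not say where in the gene a stretch lies. The 20 Watson intron members are called short-stretch genes here and the other 36 the remaining genes. The split was made after its values had been seen.

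All 56 genes carried far more Pol II than a typical gene in every library. In WT, the median member had 8.00 times the Pol II over input of the median gene. All 56 lay above 2-fold, where 13.1% of genes lay, and 54 lay above 4-fold, where 4.97% did. Above 8-fold there were 28 members, against 2.05% of genes. All 56 ranked in the top 10% of genes, at places 12 to 451. By library, the median member stood 7.39-fold and 7.40-fold above the median gene in Pcf11-13, 8.15-fold and 6.59-fold in Pcf11-DNL, and 7.13-fold and 8.88-fold in WT. The lowest and highest of these were Pcf11-DNL replicate 2 and WT replicate 2. The Pcf11-13 values lay between the 2 WT values.

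**Figure D1:**
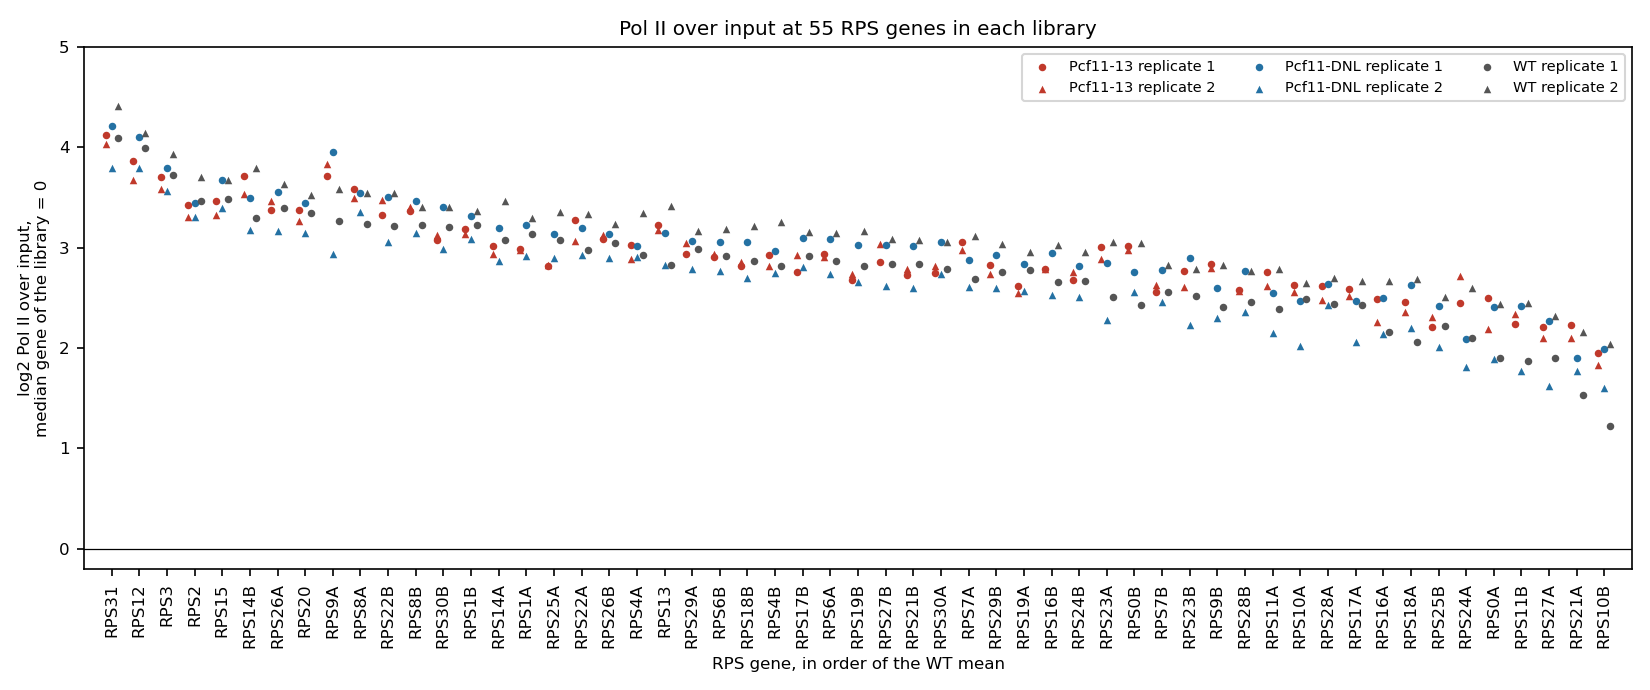
Pol II over input at 55 of the 56 RPS genes in the 6 library pairs, on a log2 scale with the median gene of each library at 0; genes run in order of the WT mean, circles are replicate 1 and triangles replicate 2. RPS31 is at the top and RPS10B at the bottom in WT, every point lies above 0, and WT replicate 2 lies above WT replicate 1 at every gene drawn.

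The densest genes in WT were single-copy genes. RPS31 (YLR167W, chromosome XII, 498947 to 499405, sacCer3), which encodes a 40S protein fused to ubiquitin, had 2239 and 2082 scaled Pol II coverage in Pcf11-13, 2342 and 1908 in Pcf11-DNL, and 2142 and 2830 in WT. Its WT Pol II over input was 19.1 times that of the median gene. RPS12 (YOR369C, chromosome XV, 1028194 to 1028625) had 1755 and 1623 in Pcf11-13, 1991 and 1715 in Pcf11-DNL, and 1936 and 2205 in WT. Both Pcf11-13 libraries of RPS12 lay below both WT libraries, whereas the RPS31 values of Pcf11-13 overlapped those of WT. RPS3 (YNL178W, chromosome XIV, 302680 to 303402), at the mRNA entry channel, had 1649 and 1576 in Pcf11-13, 1729 and 1487 in Pcf11-DNL, and 1626 and 2008 in WT. RPS2 (12.0-fold over the median gene in WT), needed for accurate decoding, and RPS15 (11.9-fold), a protein of the subunit's head, were also among the highest. None of these genes has an intron.

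The 6 lowest members were all short-stretch genes, so their order against the remaining genes is not like for like. RPS10B (YMR230W, chromosome XIII, 732414 to 733141) was lowest in WT, at 3.10 times the median gene. It had 519.1 and 422.1 scaled Pol II coverage in Pcf11-13, 441.6 and 355.0 in Pcf11-DNL, and 287.2 and 459.0 in WT. Next from the bottom came RPS21A at 3.59-fold, RPS27A at 4.32-fold, RPS11B at 4.46-fold, RPS0A at 4.50-fold and RPS24A at 5.10-fold. RPS0A encodes a protein needed to mature the small-subunit rRNA, and RPS24A one of the body of the subunit. The median short-stretch gene stood 5.97-fold over the median gene in WT, against 8.62-fold for the remaining RPS genes. On the Crick strand, intron genes had a median of 8.00-fold and genes without intron 9.29-fold. For most of these genes the part covered is unknown, so this comparison may not be like for like either.

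The order within the family is mostly not resolved. The WT SD over both libraries had a median of 0.20 on the log2 scale and reached 0.57. Of the 55 gaps between neighbours in the WT order, 1 passed the larger SD of its 2 genes, and the largest gap was 0.26. Of the WT top 6, 4 were also in the top 6 of Pcf11-13 and 5 in that of Pcf11-DNL. The 81 large-subunit (RPL) genes had a WT median of 7.78-fold. In each library the RPS median less the RPL median of log2 Pol II coverage was 0.04 and 0.03 in Pcf11-13, 0.05 and -0.00 in Pcf11-DNL, and 0.05 and 0.05 in WT.

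Comparing Pcf11-13 with WT, 0 of the 56 RPS genes passed an adjusted p of 0.05 in limma, against 0.979% of the 6642 genes tested called higher and 0.151% called lower. At an unadjusted p under 0.05 there were also 0 members, where 12.6% of genes lay. The smallest adjusted p of a member was 0.534. With quantile normalization 10 of 56 had an unadjusted p under 0.05, and 3.21% of genes were called higher and 0.979% lower. The share of all genes under that unadjusted p was not computed in this setting, so the 10 have no background. Without both narrow-spread libraries, which leaves 1 WT library, the median member changed by -0.23 and RPS25A by -0.51. Without WT replicate 2, which also leaves 1 WT library, RPS10B changed by 0.70. The median log2 change was -0.05 over the 56 members and -0.02 over all genes. It was positive, at 0.20, with libraries scaled on meiosis genes, which move the median of all genes to 0.23. It was also positive, at 0.10, without WT replicate 2, and -0.24 without WT replicate 1. The changes ran from -0.38 to 0.37, with SEs of 0.15 to 0.41 and a median SE of 0.22. The SEs were the same in each comparison. By contrast, the 12 regulators of ribosomal protein genes described below had SEs of 0.07 to 0.14. A change of equal size passes less easily at a member than at those genes. The 0 members under an unadjusted p of 0.05 therefore do not show that RPS genes are steadier than other genes.

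The 4 members with the most negative change in Pcf11-13 were RPS25A, RPS12, RPS14A and RPS19B. RPS25A (YGR027C, chromosome VII, 534132 to 534458) encodes a head protein that some viral RNAs need to start translation. It had 903.9 and 942.8 scaled Pol II coverage in Pcf11-13, 1107 and 931.2 in Pcf11-DNL, and 1093 and 1327 in WT. Both Pcf11-13 libraries lay below both WT libraries, and the change was -0.38 ± 0.22 (SE, n = 2 each, 95% interval -0.88 to 0.11, limma, adjusted p = 0.534). RPS14A (YCR031C, chromosome III, 177500 to 178220), whose protein lies on the platform of the subunit, had 1079 and 1007 in Pcf11-13, 1100 and 920.3 in Pcf11-DNL, and 1098 and 1439 in WT. Its log2 change was -0.27 ± 0.24 in Pcf11-13, with both libraries below both of WT. RPS19B, whose human counterpart is mutated in Diamond-Blackfan anemia, had 712.1 and 724.4 in Pcf11-13, 832.3 and 686.0 in Pcf11-DNL, and 768.1 and 936.5 in WT. The RPS19B groups Pcf11-13 and WT did not overlap, and its change was -0.24 ± 0.18. In all, 12 members had both Pcf11-13 libraries below both WT libraries and 1 (RPS8A) had both above, where 20.5% and 19.6% of all genes did. The share below, 12 of 56, is near that background.

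The 4 members with the most positive change were RPS10B, RPS14B, RPS17A and RPS8A. RPS10B, given above, changed by 0.37 ± 0.22 (95% interval -0.13 to 0.86, limma, adjusted p = 0.556). Its WT replicate 2 lay between the 2 Pcf11-13 libraries. RPS14B (YJL191W, chromosome X, 73787 to 74611), whose RNA is bound and held down by Rps14 protein, had 1728 and 1781 in Pcf11-13, 1555 and 1131 in Pcf11-DNL, and 1213 and 1861 in WT. RPS17A had 1012 and 902.1 in Pcf11-13, 777.4 and 627.5 in Pcf11-DNL, and 685.0 and 995.5 in WT. In both genes the Pcf11-13 and WT values overlapped, with WT replicate 1 the lower of the WT libraries. RPS8A (YBL072C, chromosome II, 88523 to 89125), which has no intron, had 1444 and 1441 in Pcf11-13, 1432 and 1198 in Pcf11-DNL, and 1130 and 1435 in WT. Its Pcf11-13 libraries lay well above WT replicate 1 and just above WT replicate 2, and the change was 0.18 ± 0.27.

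**Figure D2:**
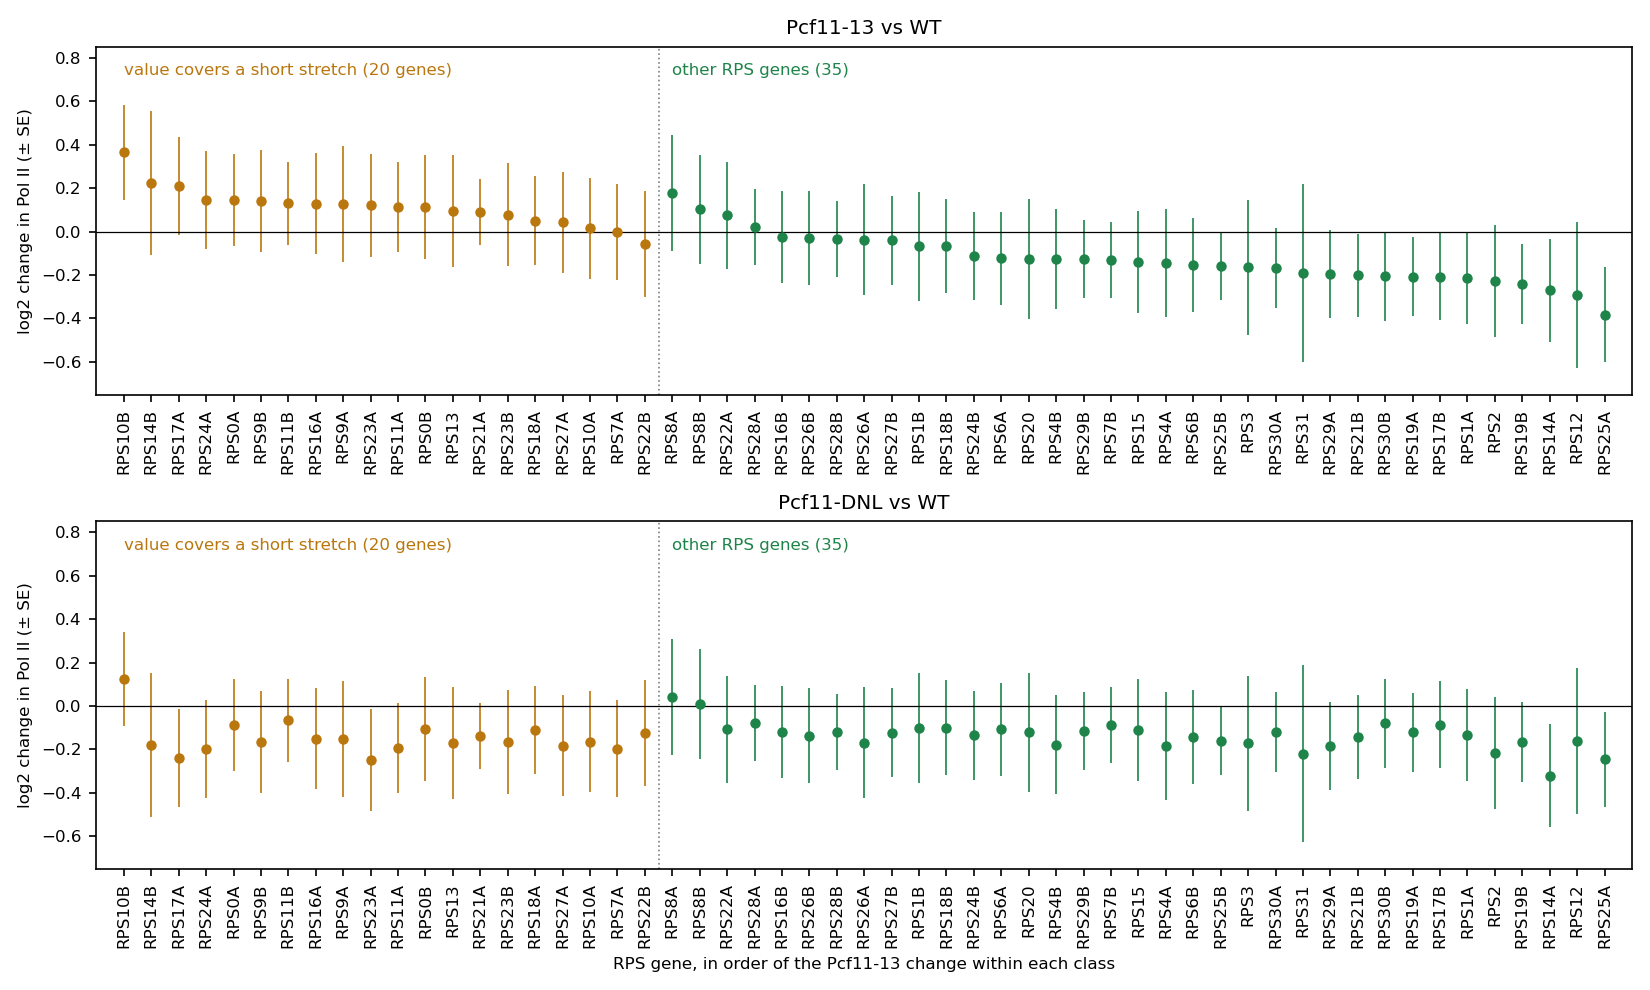
Log2 change in Pol II coverage with its SE for 55 of the 56 RPS genes, Pcf11-13 against WT above and Pcf11-DNL against WT below; short-stretch genes are left of the dotted line and the remaining genes right of it, in order of the Pcf11-13 change within each class. In Pcf11-13, 18 of 20 short-stretch genes and 4 of the 35 remaining genes drawn lie above 0; in Pcf11-DNL, 1 of 20 and 2 of 35 do.

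In Pcf11-13 the short-stretch genes and the remaining genes differed in the sign of the change. The short-stretch genes had a median log2 change of 0.12, and 18 of 20 were positive. The remaining genes had a median of -0.14, and 4 of 36 were positive (RPS8A, RPS8B, RPS22A and RPS28A). Over all genes, 46% were positive. The counts rest on the WT libraries: 2 of the 56 members were positive without WT replicate 1, and also without both narrow-spread libraries, and 40 were without WT replicate 2. The 2 short-stretch genes below 0 were RPS7A and RPS22B. RPS22B, whose intron hosts the small nucleolar RNA SNR44, had 1181 and 1206 in Pcf11-13, 1288 and 1005 in Pcf11-DNL, and 1146 and 1342 in WT. The short-stretch genes are exactly the Watson-strand intron members, so the length covered and the combination of strand and intron cannot be told apart, and for most of the remaining genes the part covered is unknown. Watson genes without intron had a median of -0.14 with 1 of 10 positive, Crick intron genes had -0.15 with 0 of 16, and Crick genes without intron had -0.13 with 3 of 10. In the RPL genes, 26 of 27 short-stretch genes were positive with a median of 0.08, and 6 of the other 54 were, with a median of -0.09. Of 66 short-stretch genes that belong to neither subunit, 48 were positive, with a median of 0.13. Of these 66, 3 were called higher, where 0.979% of all genes were. The 27 RPL and 66 other short-stretch genes were taken by fitted stretch on the Watson strand only, without regard to introns. The RPS class was instead defined by strand and intron. The other 54 RPL genes were not split by strand or intron. These counts therefore do not separate length from strand or intron either.

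Library by library, the short-stretch median less the median of the remaining RPS genes, in log2 Pol II coverage, was -0.08 and -0.15 in Pcf11-13, -0.41 and -0.53 in Pcf11-DNL, and -0.55 and -0.28 in WT. Both Pcf11-13 libraries lay above the other 4. The RPL genes gave -0.34 and -0.43 in Pcf11-13, -0.52 and -0.66 in Pcf11-DNL, and -0.66 and -0.52 in WT, again with Pcf11-13 above the other 4. In the input libraries the RPS difference was 0.07 and -0.00 in Pcf11-13, 0.03 and 0.03 in Pcf11-DNL, and 0.07 and 0.08 in WT. The difference between the class medians of the Pcf11-13 change was 0.26, and it ran from 0.14 without WT replicate 1 to 0.38 without WT replicate 2. It was 0.14 without both libraries of narrow spread. With 2 libraries a group and a split chosen from the values, it has no test of its own.

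**Figure D3:**
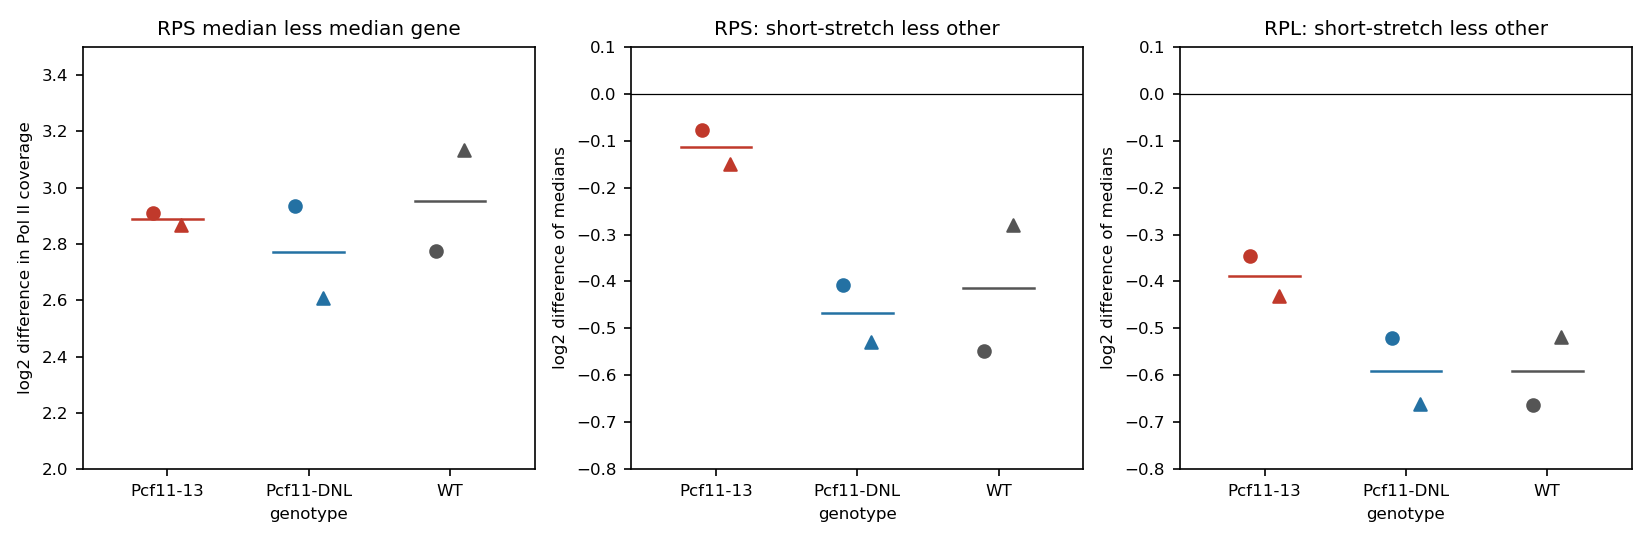
Values per Pol II library by genotype, circles for replicate 1, triangles for replicate 2 and lines for the mean of 2: the RPS median over the median gene (left), and the median of short-stretch genes less that of the remaining genes for RPS (middle) and RPL genes (right), all as log2 differences. In the left panel the mutants lie within or below the 2 WT values, from 2.61 in Pcf11-DNL replicate 2 to 3.13 in WT replicate 2; in the other panels both Pcf11-13 libraries lie above the other 4.

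Comparing Pcf11-DNL with WT, 0 of 56 members were called in limma, against 0.0151% of genes called higher and 0% called lower. At an unadjusted p under 0.05 there were 0 members as well, where 1.61% of genes lay. With quantile normalization there were 3, a setting in which the share of all genes was not computed. Fits without WT replicate 1 leave 1 WT library, so only their changes are given. The median log2 change was -0.14, with 3 of 56 positive, against -0.00 over all genes, where 49.7% were positive. The median was 0.04 without WT replicate 2, -0.31 without WT replicate 1 and 0.01 under quantile normalization. Without both narrow-spread libraries it was -0.16, with 1 of 56 positive. No member had both Pcf11-DNL libraries beyond both WT libraries, where 9.09% of genes had both above and 7.6% both below. The median change also moved with the Pcf11-DNL libraries. Without Pcf11-DNL replicate 2 alone it was 0.01, with 32 of 56 positive, so the sign depended on the libraries kept in both groups. Of the Pcf11-DNL libraries, replicate 2, which has a narrow spread, had the lower RPS median. Its median scaled Pol II coverage over the 56 genes was 753.3, against 945.9 in Pcf11-DNL replicate 1. The WT medians were 841.2 in replicate 1, the other library of narrow spread, and 1088 in replicate 2.

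The most negative changes in Pcf11-DNL were those of RPS14A at -0.32 ± 0.24, RPS23A at -0.25 ± 0.24, RPS25A at -0.25 ± 0.22 and RPS17A at -0.24 ± 0.23. RPS23A, a protein of the decoding centre, had 966.6 and 967.7 in Pcf11-13, 847.3 and 661.8 in Pcf11-DNL, and 730.2 and 1084 in WT. Its Pcf11-DNL replicate 1 lay between the WT libraries. The most positive were RPS10B at 0.12 ± 0.22, RPS8A at 0.04 ± 0.27, RPS8B at 0.01 ± 0.25 and RPS11B at -0.07 ± 0.19. Short-stretch genes had a median of -0.16 and the remaining genes -0.12 in this comparison.

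Between the mutants, 0 of 56 members were called in Pcf11-DNL against Pcf11-13 in limma, where 0.0602% of genes were called higher and 0.105% lower. At an unadjusted p under 0.05 there were 0, where 11% of genes lay, and 11 of 56 with quantile normalization. The share of all genes under quantile normalization was not computed, so the 11 members have no background. The comparison shares the Pcf11-13 libraries with that of Pcf11-13 and WT. Short-stretch genes had a median log2 change of -0.24, with 0 of 20 positive, and the remaining genes 0.00, with 18 of 36 positive. Over all genes 51.2% were positive. Of the short-stretch genes, 9 had both Pcf11-DNL libraries below both of Pcf11-13, and of the remaining genes 1 did, where 26.7% of all genes did. None of the 56 had both above, where 29.1% of all genes did. RPS17A had the most negative change at -0.45 ± 0.23 (limma, adjusted p = 0.493), followed by RPS14B at -0.40, RPS23A at -0.37 and RPS24A at -0.35. RPS24A had 692.8 and 804.6 scaled Pol II coverage in Pcf11-13, 667.5 and 517.1 in Pcf11-DNL, and 546.9 and 832.0 in WT. Its input was higher in Pcf11-DNL than in Pcf11-13 by log2 0.30 (189.1 and 178.5 in Pcf11-DNL, 152.0 and 145.8 in Pcf11-13, limma, adjusted p = 0.0505). The highest were RPS25A at 0.14, RPS12 at 0.13, RPS30B at 0.13 and RPS17B at 0.12. RPS30B had 836.5 and 913.2 in Pcf11-13, 1053 and 863.6 in Pcf11-DNL, and 939.0 and 1082 in WT.

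In limma, 0 of 56 were called in any of the 3 input comparisons. Called shares of all genes were 0.12% higher and 0.135% lower for Pcf11-13 against WT, 0% both ways for Pcf11-DNL against WT, and 0.151% and 0.105% for Pcf11-DNL against Pcf11-13. At an unadjusted p under 0.05 there were 6, 4 and 6 members in the same order of comparisons, where 5.78%, 3.49% and 5.71% of genes lay. Median input changes of the RPS genes were -0.01, -0.01 and 0.00 on the log2 scale. RPS9A had the lowest input of the 56 in each library, 94.0 to 96.6 scaled coverage in Pcf11-13, 86.6 to 116.0 in Pcf11-DNL and 107.9 to 118.0 in WT. Its value fits a stretch of 7 bases.

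The 24 paralogue pairs were compared as the A copy less the B copy in log2 Pol II over input, in each of the 6 library pairs. The mean difference passed 1 in 0 pairs. Reads of near-identical copies cannot be assigned with certainty, and in 9 pairs 1 copy is a short-stretch gene. In 8 of those 9 pairs the B copy was higher in all 6 library pairs, and in RPS7 the A copy was. The higher copy was the short-stretch gene in RPS7, RPS14 and RPS22. For RPS22 the difference was -0.04 in Pol II coverage alone and 0.19 in input. The clearest like-for-like pair was RPS25, where both copies lack introns. RPS25A stood above RPS25B in 6 of 6, by a mean of 0.74 ± 0.15 (SD, n = 6). That difference was 0.56 in Pcf11-13, 0.81 in Pcf11-DNL and 0.85 in WT. RPS26A was above RPS26B by 0.34 ± 0.05, and RPS30B above RPS30A by 0.33, each in 6 of 6. RPS30B fits a stretch of 273 bases and none was found for RPS30A, so that pair may not be like for like. RPS6 and RPS28 had mean differences of -0.01 and -0.03 with mixed signs. In Pol II coverage alone these were -0.08 and 0.07, with the A copy higher in 0 of 6 for RPS6 and 6 of 6 for RPS28. Among pairs with 2 short-stretch copies, RPS10A was above RPS10B by 0.69 ± 0.30, and by 1.10 in Pol II coverage alone. RPS9A was above RPS9B by 0.92 ± 0.25, with 0.34 in Pol II coverage alone and -0.58 in input.

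**Figure D4:**
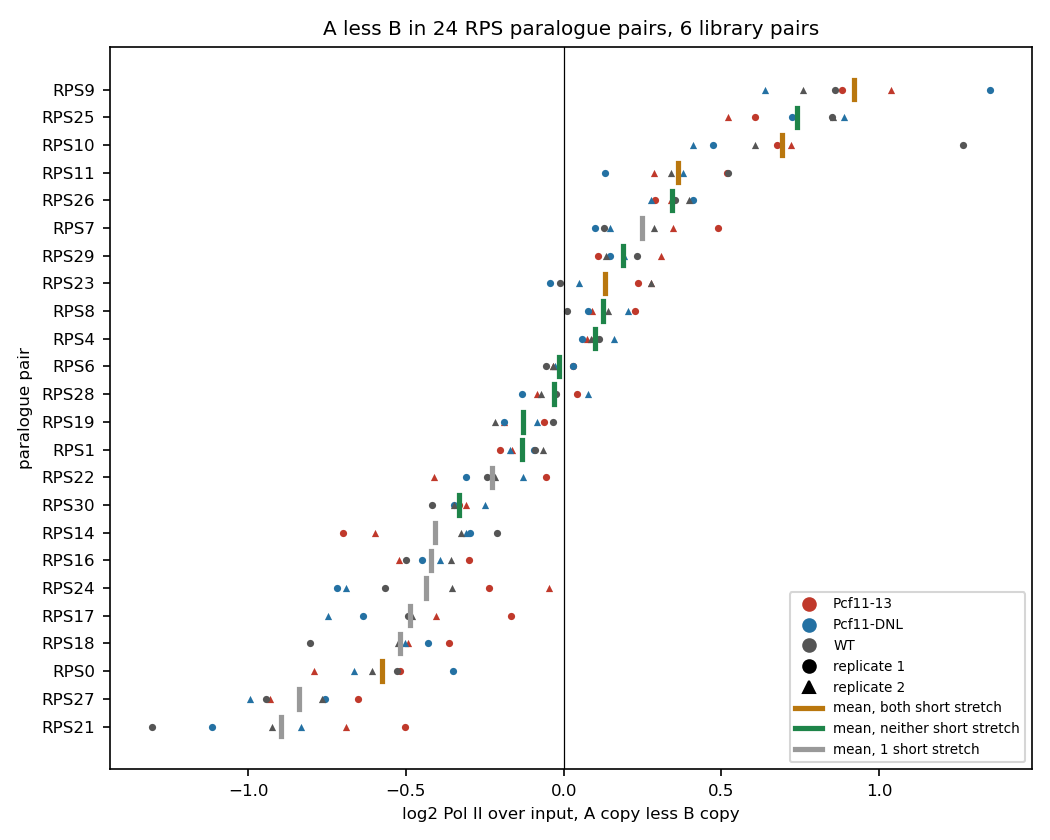
Log2 Pol II over input of the A copy less the B copy for the 24 RPS paralogue pairs; each point is 1 library pair, colour gives the genotype, circles replicate 1 and triangles replicate 2, and the bar is the mean of 6, coloured by how many copies are short-stretch genes. RPS25A lies above RPS25B in every library pair, and in 8 of the 9 pairs with 1 short-stretch copy every point lies below 0.

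Genes that regulate the ribosomal protein genes or build the small subunit had no calls, and few of all genes had any. Of all genes, 0.979% were called higher and 0.151% lower in Pcf11-13 against WT, and 0.0151% and 0% in Pcf11-DNL. Between the mutants the shares were 0.0602% and 0.105%. Of 12 regulators of ribosomal protein genes, among them RAP1, FHL1, IFH1 and SFP1, 0 were called in limma in any of the 3 comparisons. Their median log2 changes were 0.03 in Pcf11-13 and -0.05 in Pcf11-DNL, each against WT. At an unadjusted p under 0.05 there were also 0. Of all genes, 12.6% lay there in Pcf11-13 against WT, 1.61% in Pcf11-DNL against WT and 11% between the mutants. Of 16 factors of 40S assembly and export, among them TSR1, LTV1, NOB1 and RIO2, 0 were called and 0 had an unadjusted p under 0.05, with medians of -0.05 in Pcf11-13 and -0.03 in Pcf11-DNL. The nearest genes downstream of the members, on either strand, were 53 distinct genes once ribosomal protein genes were left out. In Pcf11-13, 1 of these 53 was called higher and 0 lower, where 0.979% and 0.151% of all genes were. It was YGR026W, 310 bp beyond RPS25A on the opposite strand, at 0.39 ± 0.07 (limma, adjusted p = 0.0472). As the libraries do not separate strands, reads of convergent neighbours cannot be told apart. Of the 53, 24 had both Pcf11-13 libraries below both WT libraries, against 20.5% of all genes, and the median change of the 53 was -0.10. Among the 19 on the same strand as the RPS gene, 6 had both below, with a median change of -0.07. At an unadjusted p under 0.05 in limma there were 11 of the 53, where 12.6% of all genes lay. In Pcf11-DNL 0 were called, and the median was -0.06.

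Over the 6 Pol II libraries, the non-member genes whose centred log2 coverage most resembled the RPS median were RPL17B (r = 0.998), the histone H4 gene HHF2 (r = 0.996), the uracil salvage gene FUR1 (r = 0.996), YGL102C (r = 0.994) and HMO1 (r = 0.993), which encodes a protein bound at many ribosomal protein promoters. All 6 points share their library and its spread with the RPS values, so r is a description. Of the 100 most alike genes, 17 were RPL genes. The members' own r with the RPS median had a median of 0.913 and a lowest value of 0.616.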

How the data were processed

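Pol II and input libraries were grouped and numbered by their titles. The labels name 2 biological replicates of each strain, sequenced as 50 nt single-end reads, without saying whether cultures were separate, so p-values measure the spread between these samples. Deposited values are read coverage per gene, a signal not scaled to depth, in which the number of reads is unknown. Per the submitters' processing notes the tools were deepTools 3.1.2, Trimmomatic 0.38 and BWA 0.7.17-r1188, and the build sacCer3. How coverage was averaged is not given in the sources used here. Smallest stretches up to 300 bp were sought at which coverage times length was whole within 0.0006 per base in all 12 libraries. Of short genes, 139 of 141 on the Watson strand and 51 of 150 on the Crick strand were whole at their own length.

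RefSeq locus tags of the same assembly matched 5976 genes. Coverage was divided by unweighted trimmed-mean (TMM) factors (trimming 5 percent by mean level and 30 percent by log ratio), 1 was added and log2 taken, so folds of low genes are understated. Genes with coverage of at least 10 in 2 or more libraries were kept. The 6 libraries of an assay were fitted together in limma 3.58.1 (R 4.3.3) with its trend option, with Benjamini-Hochberg adjustment over all genes tested. A gene was called at an adjusted p under 0.05. The script was tested on simulated data. Pol II over input used the input of the same number, each library centred on its median gene.

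Members and lists were chosen with earlier results of these data known. Introns were assigned from textbook knowledge. The genes named were members called in any comparison, the 6 highest and 6 lowest by WT level, the 4 largest changes each way per comparison, paralogue pairs past 1, RPS22B, RPS31, the 5 most alike non-members, and PCF11. Others were chosen after their values were seen. A gene that the rule takes is left out of the text and the figures.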

Additional observations from a re-analysis of the deposited data

How the results depend on the processing

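No RPS gene was called under most settings. The exceptions were RPS27A, lower in Pcf11-DNL without WT replicate 1; RPS10B, higher in Pcf11-13 without WT replicate 2; and 4 genes (RPS14A, RPS2, RPS25A and RPS19B), lower in Pcf11-13 without both narrow libraries, WT replicate 1 and Pcf11-DNL replicate 2. Where a group was left with 1 library, it was assumed to vary like the others. In the input, RPS24A was called higher in Pcf11-DNL against Pcf11-13 with library totals, 1 of 56, where 0.166% of all genes were. The cause of that call was not tested.

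Calls over all genes moved more. In Pcf11-13 against WT the 75 calls became 32 with no coverage filter, 292 with library totals, 278 with quantile normalization, 9 scaled on meiosis genes, 139 with input subtracted, 232 with only the 2 genotypes fitted, 618 without both narrow libraries, and 8 to 1215 with 1 library left out. In Pcf11-DNL against WT the 1 call became 0 with no filter, scaled on meiosis genes or with 2 genotypes, 3 with coverage of at least 30, 8 with library totals, 2 with input subtracted, 105 without both narrow libraries, and 0 to 401 with 1 left out. In Pcf11-DNL against Pcf11-13 the 11 became 5 with no filter and with quantile normalization, 119 with library totals, 32 scaled on meiosis genes, 703 with 2 genotypes, 404 without both narrow libraries, and 1 to 679 with 1 left out.

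The RPS median change scaled on meiosis genes was 0.20 in Pcf11-13 and -0.45 in Pcf11-DNL against Pcf11-13, where the median of all genes was 0.23 and -0.37. With 1 library left out the RPS median ran from -0.24 to 0.10 in Pcf11-13, from -0.31 to 0.04 in Pcf11-DNL and from -0.22 to 0.07 between them. The short-stretch median less the remaining one, added after seeing the data, ran from 0.14 to 0.38, from -0.15 to 0.084 and from -0.33 to -0.17 in the same comparisons. Input medians ran from -0.020 to 0.0031 in Pcf11-13, from -0.035 to 0.014 in Pcf11-DNL and from -0.026 to 0.022 between the mutants. Of the paralogue pairs, 1 passed 1 in Pol II coverage alone.

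Replicate numbers did not pair the libraries: same-numbered deviations had r = -0.09 for Pcf11-13 and WT, -0.89 for Pcf11-DNL and WT and -0.07 for the mutants. A replicate block gave 3 calls in Pcf11-DNL against WT and 20 between the mutants. With numbers crossed in Pcf11-DNL, chosen after seeing the data, the block gave 31 calls against WT.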
